A study of Drosophila melanogaster with 3 samples.

Results

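Spliceosome genes of Drosophila melanogaster were examined for Myc binding at their transcription starts. They were taken by symbol from the protein-coding genes of the Ensembl BDGP6 annotation. The symbols were those starting with LSm, Sf3a, Sf3b, snRNP-U1-, U2af or Prp followed by a digit, plus SmB, SmD1, SmD2, SmD3, SmE, SmF, SmG, snf, U2A and crn. This gave 37 genes of the 13945 on the main chromosome arms. SmG is listed under its current symbol, SNRPG. The pattern is sensitive to letter case, so Lsm10, Lsm11 and Lsm12a stayed outside. Chromatin immunoprecipitation and sequencing (ChIP-seq) was done on whole embryos aged 0 to 16 h, with males and females pooled. The flies, strain dm-GFP, were a transgenic line that stably expressed the dm gene product, Myc, with green fluorescent protein (GFP) at its C terminus. An antibody against GFP pulled down chromatin sonicated to 200 to 800 bp. The 3 biological replicates form 1 group, with no second condition, so all comparisons are between genes or between replicates. The tagged protein was precipitated, and whole embryos average over all tissues, so more bound cells and stronger binding per cell cannot be told apart.

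The spliceosome removes introns from messenger RNA precursors. Small nuclear ribonucleoproteins (snRNPs) recognise the splice sites and the branch site, and a changing set of Prp proteins then rearranges the machine through its catalytic steps. Myc is a basic helix-loop-helix factor that pairs with Max and binds E-boxes, the best known of which reads CACGTG, and in flies it is known above all for driving cell growth through genes of ribosome production and RNA processing. A gene was called bound when a summit of the list thresholded by irreproducible discovery rate (IDR), in dm6 coordinates, lay within 500 bp of any of its annotated starts. The signal of a peak is the authors' own deposited score, with no unit, and it is used here to rank peaks within a list. Distances are from the start of the gene to the summit, negative upstream.

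DNA under summits that held one of the words searched is shown first, so that the letters behind the later counts can be seen. The display is partial, as the GGTCACAC matches at SmE, at SmF and at the second summit of Sf3b6 are not shown. Each stretch is read 5′ to 3′ on the strand of the named gene, from the RefSeq genome of dm6, and lies within 50 bp of the summit, shortened where annotated untranslated sequence would pass 30 bases. Capitals mark the word. The canonical E-box CACGTG lay near a summit of Sf3b1 (2L:568077-568106, plus strand) and near that of Sf3b3 (3L:833159-833259, minus strand).
Sf3b1, first peak: aacaaaagtaaaCACGTGccgcaacttgtt
Sf3b3: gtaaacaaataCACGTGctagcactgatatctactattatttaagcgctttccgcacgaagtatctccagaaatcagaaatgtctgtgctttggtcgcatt
The word GGTCACAC, the core of the promoter element known as Motif 1, lay near the second summit of Sf3b1 (2L:568240-568340, plus strand), at Prp3 (3L:19910216-19910316, plus strand) and at the first summit of Sf3b6 (3L:6193176-6193276, minus strand).
Sf3b1, second peak: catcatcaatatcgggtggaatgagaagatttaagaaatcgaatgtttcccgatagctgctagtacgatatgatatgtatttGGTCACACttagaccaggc
Prp3: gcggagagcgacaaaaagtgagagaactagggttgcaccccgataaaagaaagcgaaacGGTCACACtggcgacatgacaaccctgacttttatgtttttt
Sf3b6, first peak: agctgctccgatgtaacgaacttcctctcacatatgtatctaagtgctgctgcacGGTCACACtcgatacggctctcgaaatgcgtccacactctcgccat
The palindrome TATCGATA, the core of the DNA replication-related element that the fly factor Dref binds, lay at Sf3b2 (2L:3029156-3029256, minus strand) and, as a pair of overlapping matches, at the second summit of SmB (2L:10426828-10426916, minus strand).
Sf3b2: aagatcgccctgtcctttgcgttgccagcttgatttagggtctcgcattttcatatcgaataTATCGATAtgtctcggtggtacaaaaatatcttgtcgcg
SmB, second peak: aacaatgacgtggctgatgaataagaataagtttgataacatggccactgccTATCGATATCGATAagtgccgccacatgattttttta

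Of the 37 spliceosome genes, 22 (59.5%, 95% Wilson interval 43.5 to 73.7%) were bound, against 26.0% of all protein-coding genes. The interval covers counting error over genes and nothing else. The strongest 4371 peaks of each replicate, as many as the IDR list holds, are called its top list. In the top lists of replicates 1, 2 and 3, 21, 18 and 19 of the spliceosome genes had a summit at a start. These counts are 56.8, 48.6 and 51.4% of the group (mean 52.3% ± 4.13, SD, n = 3), against 26.4, 24.6 and 24.5% of all genes (mean 25.2% ± 1.10, SD, n = 3). The share among spliceosome genes was thus higher in each of the 3 replicates, and the lowest replicate of the group lay above the highest of all genes. A summit at a start in all 3 top lists was found for 13 spliceosome genes (35.1%), against 18.2% of all genes, and 11 spliceosome genes had none in any. Keeping only IDR peaks present in the top lists of both other replicates left 14 spliceosome genes (37.8%) without replicate 1, 13 (35.1%) without replicate 2 and 15 (40.5%) without replicate 3, against 17.5, 19.1 and 18.9% of all genes. The IDR list was made from these same replicates, so its overlap with them is partly built in.

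The roles within the machine differed in how many genes were bound, although the groups are small. The Sm core had 6 of 7 genes bound (85.7%, Wilson interval 48.7 to 97.4%). The U2 group, made of U2A and the Sf3a, Sf3b and U2af genes, had 7 of 10 (70%, 39.7 to 89.2%). U1 snRNP had 2 of 3 (66.7%, 20.8 to 93.9%). The Prp proteins with crn had 6 of 13 (46.2%, 23.2 to 70.9%), and the genes whose symbols start with LSm had 1 of 4 (25%, 4.56 to 69.9%). These intervals overlap, and none of the differences between roles was tested. Only the Sm core and the U2 group kept shares of at least 50% in each of the top lists. U1 genes ranged most widely, with 1, 2 and 3 of the 3 genes in the top lists of replicates 1, 2 and 3.

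**Figure D1:**
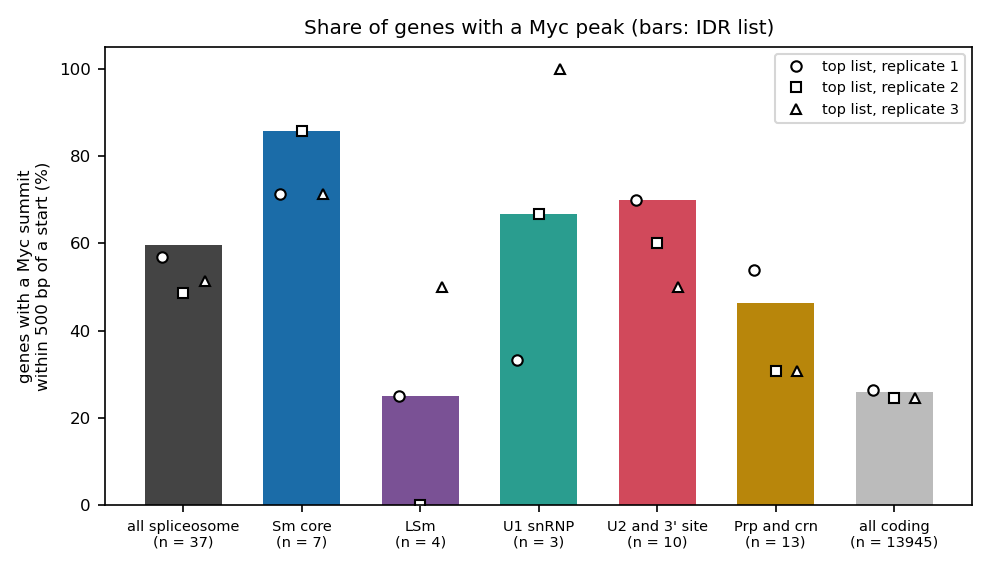
Share of genes with a Myc summit within 500 bp of a start, in percent, for all 37 spliceosome genes, for their 5 roles and for all 13945 protein-coding genes. Bars give the IDR list and the symbols the top list of each replicate; the bar of all spliceosome genes stands at 59.5%, that of the Sm core at 85.7% and that of all genes at 26.0%.

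Being bound was more frequent in the group, but the peaks were of ordinary strength. The strongest peak of the 22 bound spliceosome genes had a median signal of 191, with quartiles of 140.2 and 275 and a range of 113 to 427. All 3619 bound genes had a median of 197, with quartiles of 145 and 312 and a highest value of 2033. Of the spliceosome genes, 10 lay above the median of all bound genes, 3 above their upper quartile, 7 below their lower quartile and none above their 90th percentile of 495. As many as 505 bound genes (14.0%) had a stronger peak than Sf3b2, the highest spliceosome gene. To compare replicates, the strongest signal at a start was divided by the median over IDR peaks found in that replicate, which gives a relative signal with 1 as the typical IDR peak. That strongest peak can have another summit than the IDR peak of the gene. The median relative signal of the bound spliceosome genes was 1.23, 1.17 and 0.981 in replicates 1, 2 and 3 (mean 1.13 ± 0.132, SD, n = 3), against 1.15, 1.10 and 1.04 for all bound genes (mean 1.10 ± 0.0519, SD, n = 3). The spliceosome genes were higher in replicates 1 and 2 and lower in replicate 3, and the difference of the means was smaller than their spread.

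**Figure D2:**
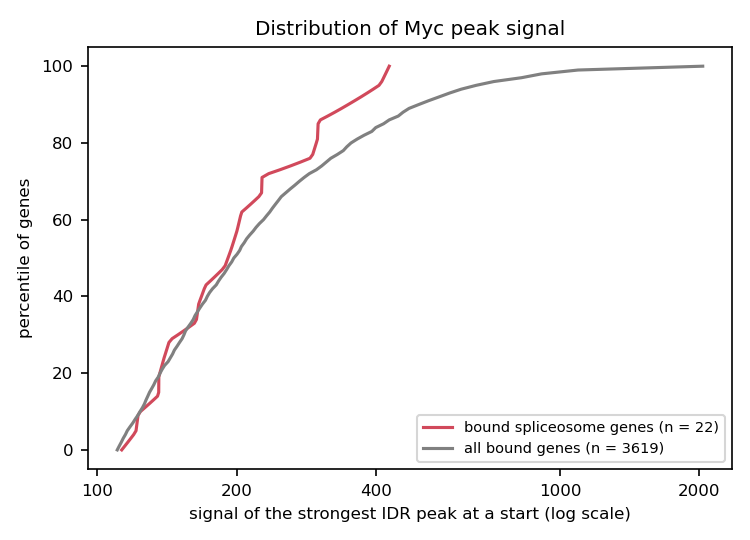
Percentile of genes against the signal of the strongest IDR peak at a start, on a log axis, for the 22 bound spliceosome genes and for all 3619 bound genes. The curves run close together up to their medians of 191 and 197, and the spliceosome curve ends at 427 while that of all bound genes goes on to 2033.

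The 7 Sm proteins form the ring that wraps the RNA of most spliceosomal snRNPs. SmD3 had the strongest peak among them (IDR peak 2R:12168503-12168952), with its summit at -3 bp. Its signal was 123, 108 and 104 in replicates 1, 2 and 3, and 354 in the IDR list, a relative signal of 1.83 ± 0.215 (SD, n = 3). All 3 replicates placed SmD3 well above the typical IDR peak, and the start of Oda, which codes for a regulator of polyamine synthesis, lay 243 bp away on the opposite strand. SmB had a pair of IDR peaks, of 290.5 at -40 bp (2L:10426442-10426891) and 172 at -251 bp, and the second lay at -9 bp from the start of KdelR, which codes for a receptor for retained endoplasmic reticulum proteins. At SmB the strongest signal was 112, 114 and 72.4 in replicates 1, 2 and 3 (relative signal 1.65 ± 0.511, SD, n = 3), and replicate 3 was the lowest. SmD2 (3R:6345723-6346172) had a signal of 227 at -37 bp, with 86.4, 63.2 and 71.6 in replicates 1, 2 and 3 (relative signal 1.20 ± 0.0966, SD, n = 3), and its replicates lay close together.

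The other Sm genes were weaker. SNRPG reached 171, but its summit was at -397 bp, nearer to mthl1 than to SNRPG, and the replicates differed, with 30.1 in replicate 1 against 68.3 and 82.9 in replicates 2 and 3. SmE had 143 at 30 bp and SmF had 136 at 72 bp, so that both summits lay inside the gene. SmD1, the single Sm gene that was not bound, had a peak of 78.8 at 2 bp in the relaxed pooled list, which keeps weaker peaks. That peak was centred on the start like those of SmD3 and SmB but stayed below 110, the lowest signal of the IDR list. LSm proteins form a related ring on the RNA of U6. The 4 LSm genes here were taken by symbol and do not stand for the whole ring. LSm7, the only bound gene among those whose symbols start with LSm, had the third lowest signal of all bound spliceosome genes (123, 2L:16742927-16743376). Its summit lay at -52 bp, with 46.5, 19.1 and 54.2 in replicates 1, 2 and 3 (relative signal 0.634 ± 0.248, SD, n = 3). Replicate 2 was far below the others, and LSm7 was absent from its top list. LSm3 reached 96.2 in the relaxed pooled list, LSm1, which belongs to a cytoplasmic ring that takes part in messenger RNA decay, reached 71.9, and LSm-4 had no relaxed pooled peak at its start.

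U1 snRNP recognises the 5′ splice site. The gene snf, which codes for a protein shared by the U1 and U2 particles in flies, had a signal of 195 at -70 bp and was in all 3 top lists, with 68.9, 60.3 and 55.7 in replicates 1, 2 and 3. Its start lay 259 bp from that of Cdk7, which codes for a kinase of the general transcription machinery. The peak of snRNP-U1-C was 166, but its summit at -215 bp was nearer to gukh, and replicate 1, at 33.9, was well below replicates 2 and 3, at 67.3 and 59.5. The gene of the third U1 protein, snRNP-U1-70K, was not bound and had 96.0 in the relaxed pooled list.

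The branch site is recognised by U2 snRNP with its SF3A and SF3B complexes. The highest signals of the whole group were at the SF3B genes Sf3b2 and Sf3b1, though the strongest Sf3b1 peak lay nearer to a neighbour. The Sf3b1 peak nearer to its own start, at 304, was weaker than that of SmD3, at 354. Sf3b2 had the highest signal, 427 (2L:3029126-3029318), with a summit at -38 bp, midway between its start and that of CG17219, 85 bp apart. In replicates 1, 2 and 3 its signal was 175, 127 and 122 (relative signal 2.31 ± 0.378, SD, n = 3), more than the typical IDR peak in each. Sf3b1, which codes for the largest SF3B subunit and contacts the branch site, had peaks of 409 at -258 bp (2L:567857-568306) and 304 at -50 bp (2L:568065-568514). The stronger one belongs by distance to Nle, whose product acts in ribosome assembly, since the summit lay 39 bp inside that gene, and it had no peak within 100 bp of it in replicate 2. The strongest signal at the Sf3b1 start was 183, 156 and 90.0 in replicates 1, 2 and 3 (relative signal 2.36 ± 0.842, SD, n = 3), with replicate 3 well below the others. The values of replicates 1 and 3 come from the summit nearer to Nle, and that of replicate 2 from the summit nearer to Sf3b1.

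Sf3b3, which codes for a large scaffold subunit of SF3B, had a signal of 299 (3L:832984-833433) with 127, 97.7 and 67.0 in replicates 1, 2 and 3 (relative signal 1.59 ± 0.483, SD, n = 3). In replicate 1 the strongest peak at the Sf3b3 start was another one, and the peak within 100 bp of the IDR summit had a signal of 56.7. The IDR summit, at 176 bp, lay in the first intron, and the E-box shown above lies between start and summit. The summit coincided with the annotated 5′ end of snoRNA:Psi18S-1086 (3L:833062-833209), a small nucleolar RNA (snoRNA) that guides modification of ribosomal RNA. Sf3b3 holds 9 such RNA genes in its introns. Prp39 holds 1, and Prp8 holds 1 that is named for a modified position of the U2 RNA (scaRNA:PsiU2-55), so that 3 of the 37 spliceosome genes (8.11%), against 0.567% of all protein-coding genes, carry one on their own strand, and all 3 were bound. Of all 79 coding genes with a snoRNA in an intron, 84.8% were bound, so this was the usual state of such hosts. The snoRNA comparison was chosen after the Sf3b3 summit was seen.

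Sf3b6, another SF3B subunit gene, had peaks of 200.3 at -47 bp and 125 at -283 bp. The second lay at -18 bp from the start of Tnpo, a nuclear import receptor gene. Among the SF3A genes, Sf3a1 had 163 at -59 bp, with a weak replicate 3 (83.0, 58.9 and 24.4 in replicates 1, 2 and 3). Sf3a2 (3L:12813800-12814249) was near the lower end of the IDR list with 121 at -6 bp. Its strongest signal at a start was 60.6, 33.2 and 31.6 in replicates 1, 2 and 3 (relative signal 0.676 ± 0.217, SD, n = 3). In replicates 2 and 3 these came from other summits, and the IDR summit had 28.0 and 31.1. Only replicate 1 had Sf3a2 in its top list. U2af50 codes for the large subunit of U2AF, which binds the polypyrimidine tract, and its peak of 139 lay at -146 bp, which is 42 bp inside the neighbour PIG-Q. Its strongest signal at a start was 43.0, 41.6 and 72.9 in replicates 1, 2 and 3, from other summits in replicates 1 and 2. Neither U2af38, which codes for the small subunit that reads the end of the intron, nor U2A had a relaxed pooled peak at its start. The nearest IDR summit to U2af38 lay at -552 bp, at Stip1, just beyond the 500 bp limit. With a limit of 1000 bp U2af38 counted as bound, which gave 23 of 37 spliceosome genes (62.2%), against 28.9% of all genes. Sf3b5, a small SF3B subunit gene, had 36.3 in the relaxed pooled list.

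**Figure D3:**
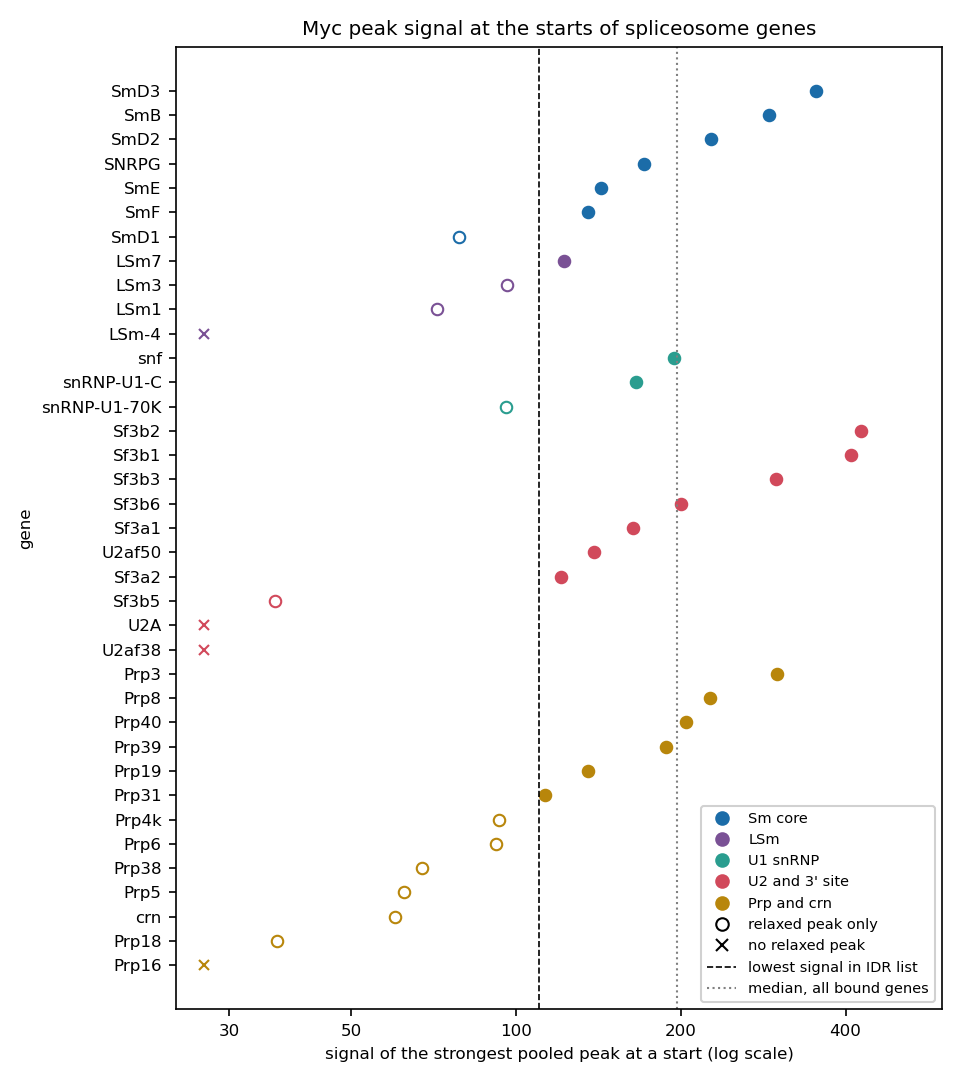
Signal of the strongest peak within 500 bp of a start in the pooled replicates, on a log axis, for each of the 37 spliceosome genes by role. Filled points are bound genes, open points had a peak in the relaxed pooled list alone, and crosses, set at the left edge, had none; the 11 open points lie between 36.3 and 96.2, left of the dashed line at 110, the lowest signal of the IDR list.

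The bound Prp genes had signals between 113 and 300.0. Prp3 and Prp31 code for proteins of the U4/U6.U5 tri-snRNP, the particle that brings in the catalytic RNAs. Prp3 (3L:19910215-19910335) had 300.0 at -34 bp, 85 bp from the start of the chromatin remodeller gene Mi-2 on the other strand, with 159, 84.6 and 71.3 in replicates 1, 2 and 3 (relative signal 1.70 ± 0.651, SD, n = 3). Prp31 (3L:15158750-15159199) was the weakest bound gene of the group, with 113 at -125 bp and a strongest signal at its start of 35.2, 35.1 and 56.1 in replicates 1, 2 and 3 (relative signal 0.686 ± 0.171, SD, n = 3). Replicate 1 had no peak within 100 bp of the IDR summit of Prp31, and its value comes from another summit. Thus Prp3 was in all 3 top lists and Prp31 in that of replicate 3 alone, and their replicate values do not overlap. Prp8, the U5 protein at the heart of the catalytic centre, had 226 at 51 bp (2R:12162722-12163171). Its signal was 123, 81.2 and 29.0 in replicates 1, 2 and 3 (relative signal 1.28 ± 0.735, SD, n = 3), and replicate 3 left it out of the top list.

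Prp40 and Prp39, whose yeast counterparts work with U1 snRNP, were steadier than Prp8, and Prp39 more so than Prp40. Their relative signals were 1.10 ± 0.236 for Prp40 and 1.07 ± 0.0946 for Prp39 (SD, n = 3). Prp40 had 205 at -8 bp, with 80.6, 66.6 and 53.3 in replicates 1, 2 and 3. Prp39 had 188 at 94 bp, with 64.4, 61.4 and 70.7. Prp19, a ubiquitin ligase that gives its name to a complex at the catalytic core, had 136 at -4 bp, but this rested on replicate 1, with 85.6 against 25.4 and 26.4 in replicates 2 and 3. The unbound Prp genes included helicase genes, Prp5 with 62.6 and Prp16 with no peak in the relaxed pooled list. In the same list the kinase gene Prp4k had 93.3, the tri-snRNP gene Prp6 had 92.1, Prp38 had 67.5 and Prp18, which codes for a factor of the second catalytic step, had 36.6. The crn gene, also called crooked neck, had 60.3, and its product is a repeat protein of the Prp19-associated particle.

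The line between bound and unbound spliceosome genes was one of signal. The IDR list held exactly the 4371 strongest of the 24667 peaks in the relaxed pooled list, from a signal of 110 upward. Just above that line stood Prp31 at 113, Sf3a2 at 121 and LSm7 at 123, and just below it LSm3 at 96.2, snRNP-U1-70K at 96.0, Prp4k at 93.3 and Prp6 at 92.1. Counting every relaxed pooled peak, 33 of 37 spliceosome genes (89.2%) had a summit at a start, against 54.0% of all protein-coding genes. Among genes with such a peak, 66.7% of the spliceosome genes were bound, against 48.1% of all genes. Of the 22 bound spliceosome genes, 13 had a summit at a start in all 3 top lists, 6 in 2 and 3 (Prp19, Prp31 and Sf3a2) in 1. None of the 15 unbound genes was in more than 1 top list. LSm3 and snRNP-U1-70K were in that of replicate 3, and Prp38 and Prp4k in that of replicate 1.

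**Figure D4:**
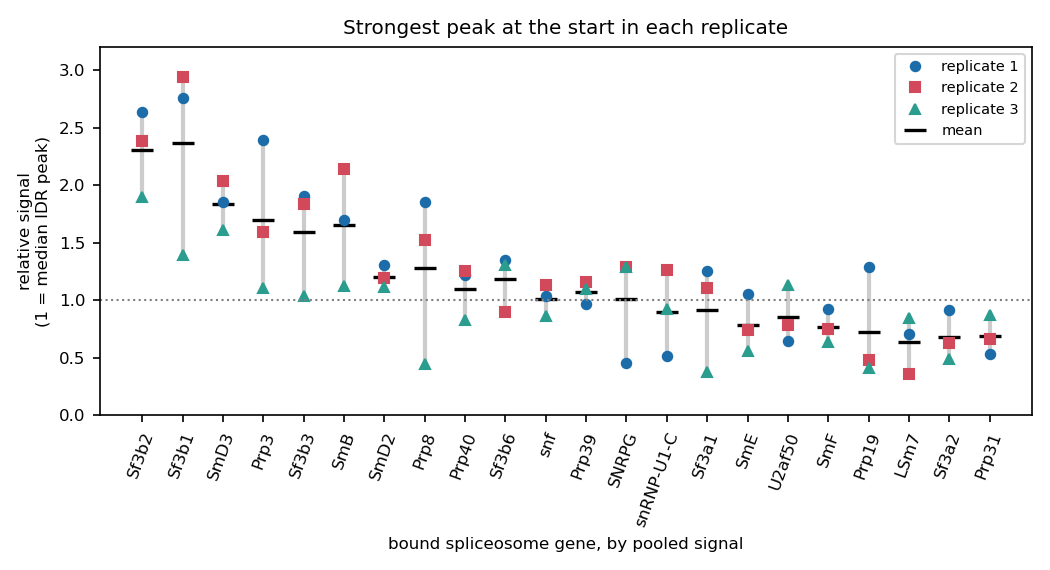
Relative signal of the strongest peak at the start in each of the 3 replicates for the 22 bound spliceosome genes, ordered by their IDR signal, with the mean as a bar and the range as a grey line. Sf3b2 stays between 1.89 and 2.64, while Prp8 spreads from 0.449 in replicate 3 to 1.85 in replicate 1.

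Bound spliceosome genes usually shared their peak with a neighbour. For 18 of 22 (81.8%), another protein-coding gene had a start within 500 bp of the summit of the strongest peak, against 58.0% of all bound genes. In all 18 pairs the neighbour lay on the opposite strand, with the starts 53 to 549 bp apart (median 243). The genes with no such neighbour were Sf3b3, Prp8, Prp39 and SmF, and in each of these the summit lay downstream of the start. Over the 22 genes the median summit of the strongest peaks lay at -37.5 bp, 17 were upstream, and 16 (72.7%) were within 100 bp of the start, against 53.8% of all bound genes. The strongest peak was nearer to the neighbour's start for 4 of 22 genes, namely Sf3b1, SNRPG, snRNP-U1-C and U2af50, against 28.0% of all bound genes. Counting second peaks, 6 of the 25 IDR peaks lay nearer to a neighbour, the others being the second peaks of SmB and Sf3b6.

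A paired start is itself common among bound genes, so the group was split by it. Another protein-coding start lay within 500 bp of a start for 23 of the 37 spliceosome genes (62.2%), against 30.9% of all genes. Of those 23, 15 (65.2%) were bound, against 50.6% of all genes with such a neighbour. Of the 14 without one, 7 (50%) were bound, against 14.9% of all genes of that kind. These 7 include SNRPG, Prp31 and Sf3a1, whose neighbours' starts lie 549, 538 and 520 bp away, just past the limit, and the other 4 are those named above with no neighbour. The share was thus higher in spliceosome genes in both classes, and neither difference was tested. With each peak given to its nearest start alone, 19 spliceosome genes (51.4%) kept a peak, against 19.1% of all genes.

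**Figure D5:**
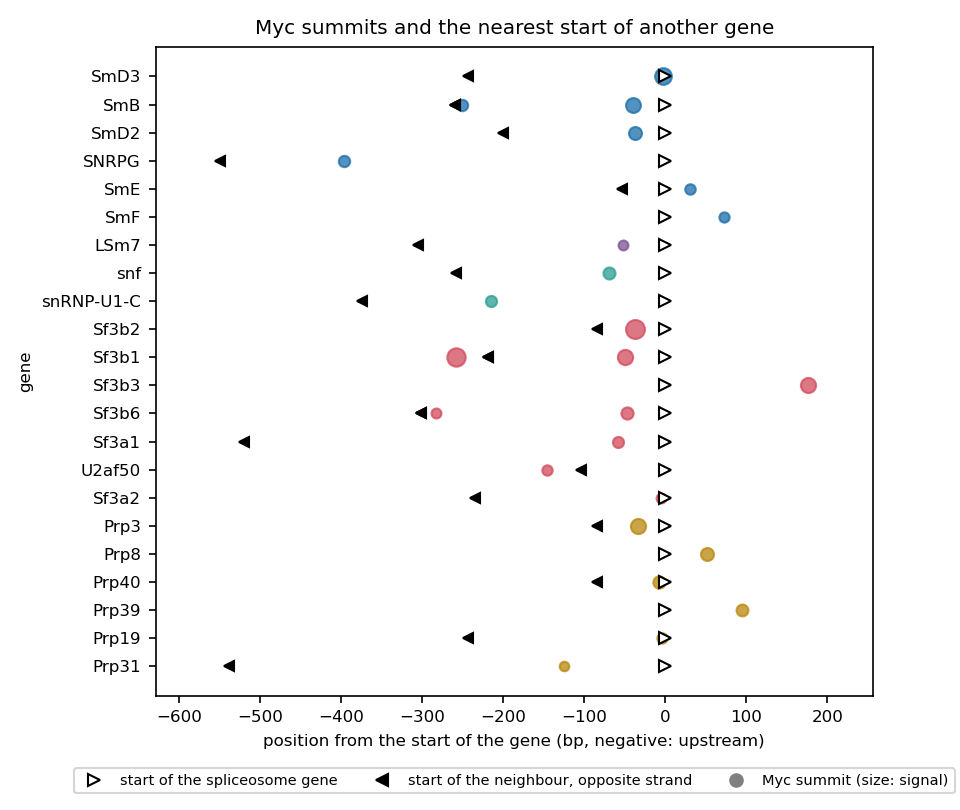
Positions of the 25 IDR summits at the 22 bound spliceosome genes, in bp from the start of the gene (negative upstream), with the start of the nearest other coding gene where there is one within reach of the summit. Point size grows with signal; open triangles mark the spliceosome gene and filled triangles the neighbour, 53 to 549 bp away on the opposite strand, and the 4 genes without a filled triangle have their summits at 51 to 176 bp.

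Words were searched on both strands, and no word is part of another. CACGTG lay within 50 bp of 2 of the 25 member summits (8%, Wilson interval 2.22 to 25%), the Sf3b1 and Sf3b3 summits shown above, against 6.85% of all 2991 IDR summits at coding starts. The other E-box form searched, CACGCG, was at none of the 25, against 6.19%. TATCGATA was at 2 of 25 (8%), against 6.75%. GGTCACAC was at 6 of 25 (24%, Wilson interval 11.5 to 43.4%), against 5.22%, in 5 genes. These were Prp3, Sf3b1, SmE, SmF and Sf3b6, the last at both of its summits. Within 500 bp of a start, bound or not, GGTCACAC occurred in 11 of 37 spliceosome genes (29.7%), against 11.7% of all coding genes, and TATCGATA in 13 (35.1%), against 13.0%. CACGTG occurred there in 5 (13.5%), against 15.4%, and CACGCG in 9 (24.3%), against 27.3%. Near summits, the shares of both E-box words among all IDR summits at coding starts lay inside the intervals of the spliceosome peaks. The share of GGTCACAC among them lay below its interval, and no test was made. That interval takes all 25 summits as independent, including both of Sf3b6. Distance to the start was not matched either, and 72.7% of strongest spliceosome peaks lay within 100 bp, against 53.8% for all bound genes. A match describes the letters and does not show a bound site.

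Splicing factors outside the symbol rule were taken from lists by function. Among SR proteins and splicing regulators, which choose splice sites, 11 of 16 were bound, and 9 kept a peak when each was given to its nearest start alone. Their median signal was 284, against 197 for all bound genes. The medians of the other lists were 155 for snRNP assembly and 171 for the genes listed as other tri-snRNP genes. They were 182 for the Prp19 complex and catalytic step factors and 230.1 for the exon junction complex. Among the SR proteins and splicing regulators, the strongest peaks were at Caper (412 at -47 bp), a U2AF-related gene, and SF1 (344 at -460 bp). The product of SF1 binds the branch site first. Both peaks were shared with a neighbour. The strongest signal at the SF1 start was 38.5, 125 and 108 in replicates 1, 2 and 3, with replicate 1 well below the others. Rsf1, Srp54 and hfp were among the genes of this list that were not bound. Of the Prp19 complex and catalytic step factors, 6 of 9 were bound, led by CG12343, the fly counterpart of Syf2 (451 at -252 bp), and c12.1 (379 at -90 bp). All 6 shared their strongest peak with a neighbour, and with the nearest start alone 2 of 9 (22.2%) kept one, against 19.1% of all genes. The unbound ones were Tango4, BCAS2 and pea. Of the genes listed as other tri-snRNP genes, 5 of 8 were bound. They were led by hoip (439 at 4 bp), with its strong peak centred on the start, and CG10418 (177 at -204 bp). With the nearest start alone, 4 of 8 kept a peak. The unbound ones were CG4849, Usp39 and Dim1. U4-U6-60K and CG7564 are counted as 2 bound genes of this list but share 1 peak, of 171. Whether CG7564 belongs to the tri-snRNP was not checked, and the counts and median of this list include it. The summit of the shared peak lay at -7 bp from the start of CG7564 and at -379 bp from that of U4-U6-60K. By distance it belongs to CG7564.

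The genes of snRNP assembly, which load the Sm ring and carry snRNAs through the cell, were bound in 5 of 10 cases, 4 of them at a shared peak, and with the nearest start alone 2 of 10 (20%) kept one. Phax, the export adaptor, had 189.7 at -363 bp, at a peak shared with Mys45A. Tgs1, the cap methyltransferase, had 188 at 12 bp, at a peak shared with Ada2a, Polr2D and moi. Gem2, Gem3, rig, vls and Snup were not bound. The exon junction complex, left on messenger RNA after splicing, was bound at 2 of 6 genes, Acn (286 at -115 bp) and mago (174 at -74 bp). Both peaks were nearer to the neighbours, Ttc19 and Tmtc3, so that with the nearest start alone none of the 6 genes kept one. The unbound ones were tsu, CG7483, RnpS1 and btz. All of these shares stand beside the 26.0% of all protein-coding genes, and differences between the lists were not tested. The 3 Lsm genes that letter case left out of the rule were mixed, with Lsm10 bound (135 at -10 bp) and Lsm11 and Lsm12a unbound at 57.7 and 57.3 in the relaxed pooled list. Lsm10 and Lsm11 belong to the U7 particle, which trims histone messages.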

How the data were processed

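Peak lists of 3 replicates were used in dm6 coordinates: a relaxed list per replicate, a pooled relaxed list and the IDR list. The signal of each peak was computed by the authors and deposited in these lists. The aligner, peak caller, IDR threshold and signal scaling were not given in the sources used here. Lists in dm3 coordinates, alignments and controls were not used here, and without read counts the depth is unknown. The relaxed lists held 29853, 26058 and 25842 peaks. Starts came from Ensembl release 115 (BDGP6.54). Python 3.11.15, pandas 2.3.3 and numpy 2.4.6 were used, and the counting was tested on simulated data. Replicate peaks within 100 bp of an IDR summit counted as the same summit. Every gene of the rule is named. Some genes of the function lists are not reported here by name. Replicate signals are given for the 8 strongest bound genes, those with CACGTG at a summit and the 3 weakest, and for others chosen after their values were seen. Of 50 names in the function lists 49 matched, 5 by synonym. Members and lists were chosen with earlier results of these data known, so no test was run over them. Alternatives changed the window, the peak set, the assignment to starts, the matching distance and the replicates used. Both letter cases of Lsm and the group without SNRPG were added after the data were seen.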

Additional observations from a re-analysis of the deposited data

How the results depend on the processing

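The share of bound spliceosome genes stayed above that of all genes in each setting. With a 250 bp window it was 21 genes (56.8%, against 22.3%), with 1000 bp 23 (62.2%, against 28.9%), with either letter case of Lsm 23 of 40 (57.5%) and without SNRPG 21 of 36 (58.3%). The stronger 50% of IDR peaks, fewer by construction, left 12 genes (32.4%, against 15.2%), a median signal of 259 and 1 peak nearer to a neighbour. CACGTG was then at 15.4% of summits, which is the same 2 summits among 13 instead of 25. For this and the settings below, the share of CACGTG over all summits at coding starts was not computed. The 250 bp window left CACGTG at 1 summit (4.76%) and 2 peaks nearer to a neighbour, and the nearest start alone left CACGTG at 1 (5.26%). Leaving out each replicate in turn, with an IDR peak kept when both other top lists held it, gave 13 to 15 genes (35.1 to 40.5%, against 17.5 to 19.1%), a median signal of 216 to 227, CACGTG at 1 to 2 summits (6.25 to 13.3%) and 1 to 3 peaks nearer to a neighbour. This demands more of each peak, and Prp19, Prp31, Sf3a2 and U2af50 were lost each time. The IDR summit itself was in all 3 top lists for 12 genes, and for 6 when the same summit had to lie within 50 bp. No paired analysis was possible because there is 1 group. The depth behind each peak is unknown, which limits what can be said of genes near the lowest IDR signal of 110.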

Other observations

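A few spliceosome genes are close together in the genome. Prp40 and Sf3b2 lie 5.94 kb apart from start to start on 2L with no protein-coding gene's start between them, and both were bound, with signals of 205 and 427. On 2R, Prp8 and SmD3 lie 5.73 kb apart with 3 genes between them. Only 1 of these was bound, Oda, which shares the peak of SmD3. SmF follows 15.6 kb beyond SmD3. LSm-4, which had no relaxed pooled peak at its start, lies 21.4 kb from SmB, which had a signal of 290.5.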
